A study of Mus musculus with 12 samples.

Results

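The mRNAs of 44 genes of the protein synthesis machinery, named by symbol, were followed through total RNA and ribosome-bound RNA of adult mouse hearts with and without Rpl3l. The genes encode the initiation, elongation, release and recycling factors and the cytoplasmic poly(A)-binding proteins. They also encode the nascent-chain and ribosome-associated proteins Naca, Btf3 and Rack1, and the growth-associated protein Tpt1. The members were chosen by what the proteins do, with earlier results of these data known. All 44 were among the 55401 genes of the count tables, and 43 were among the 6596 genes with enough counts to be tested. The remaining member, Gspt1, had between 0 and 5 counts per library.

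The series compared wild-type hearts (WT) with Rpl3l-/- hearts (KO). Rpl3l is the striated-muscle paralog of the ribosomal protein gene Rpl3. Each genotype was measured in 2 fractions, with 3 biological replicates in each of the 4 groups and 12 libraries in all. The Input libraries came from total RNA of heart homogenates, extracted with TRIzol. The IP libraries came from ribosomes pulled down with an antibody to the HA tag from hearts exposed to cycloheximide when they were removed, and that RNA was purified on RNeasy columns. The labels name neither the tagged protein nor the cells that carry it, and give no ages or strain. Whether Input and IP RNA were taken from the same hearts is not stated. The tests treat the 12 libraries as independent, and p-values measure the spread between these samples on that basis. Fraction, drug exposure and RNA purification changed together, and their effects cannot be told apart. Libraries were nanopore direct cDNA, and each value is the number of reads assigned to a gene.

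Translation starts when initiation factors bring the initiator tRNA, the small ribosomal subunit and the capped mRNA together and scan to a start codon. Elongation factors then deliver each aminoacyl-tRNA and move the ribosome along, and release and recycling factors free the protein and split the subunits. Many mRNAs of this machinery, among them those of most ribosomal proteins and of several elongation factors, are TOP mRNAs, which begin with a C followed by a run of pyrimidines and are loaded onto ribosomes under control of the mTOR pathway and of Larp1. The heart makes its proteins largely in cardiomyocytes, where the muscle elongation factor Eef1a2 works beside Eef1a1.

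Library totals ran from 169359 counts (KO Input replicate 3) to 710868, so that 3 counts stand for 4.22 to 17.7 counts per 1000000 counts (CPM). The globin share of counts varied from 1.70% to 17.3% between libraries, WT IP replicate 2 being highest and WT Input replicate 3 next at 13.8%. Rpl3l stood at 222, 308 and 279 CPM in WT Input, 68.5, 27.0 and 51.1 in KO Input, 269, 271 and 275 in WT IP and 2.33, 2.62 and 8.31 in KO IP, so all KO libraries lay below all WT libraries. Markers of cardiomyocytes summed to between 43316 and 52097 CPM in every library, with 6 of 7 genes counted and Actc1 listed at 0 throughout. Levels below are CPM scaled by TMM factors, a scaling for differences in library composition. The members together took 1.10% ± 0.098 of the counts in WT Input, 1.10% ± 0.035 in KO Input, 0.849% ± 0.095 in WT IP and 0.910% ± 0.081 in KO IP (SD, n = 3 libraries each). All 3 IP libraries lay below all 3 Input libraries in both genotypes, and an exact two-sided permutation test gave p = 0.1, the smallest that 3 against 3 libraries allow. Between genotypes the share did not separate (exact p = 1 in Input and 0.5 in IP).

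Levels of different genes were compared per kilobase (kb) of the longest annotated protein-coding transcript. A nanopore cDNA read can span much of its transcript, so a long annotated form lowers a gene's value on this scale. In WT Input the most abundant member was Tpt1, a small conserved growth-associated protein, at 2488 ± 123 CPM per kb. Eif1, which keeps the scanning ribosome from starting at a wrong codon, followed at 1024 ± 59.3. Rack1, the scaffold protein on the small subunit, came next on this scale at 398 ± 24.1. The steps between these 3 exceeded their SDs. Below them Eef2, the translocation factor, stood at 241 ± 19.4 CPM per kb, Eif5a at 222 ± 5.29, Eef1b2 at 216 ± 4.95 and Eif3k at 213 ± 20.1, and the ranges of mean ± SD of neighbours among these 4 overlapped. At the low end were Eif4g3 at 6.73 ± 1.77 CPM per kb, the elongation factor 2 kinase Eef2k at 2.27 ± 0.733 and Gspt1 at 1.35 ± 1.18. Without division by length, Tpt1 and Eif1 were again the highest in WT Input, but Rack1 did not come next. Eef2 at 743 ± 60.0 CPM and Eif4g2 at 682 ± 66.7 stood above Rack1 at 576 ± 34.8. The longest form of Eif4g2 is 7995 nt, which lowers its place per kb. In WT IP Tpt1 and Eif1 were nearly level, at 558 ± 155 and 549 ± 31.0 CPM per kb.

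**Figure D1:**
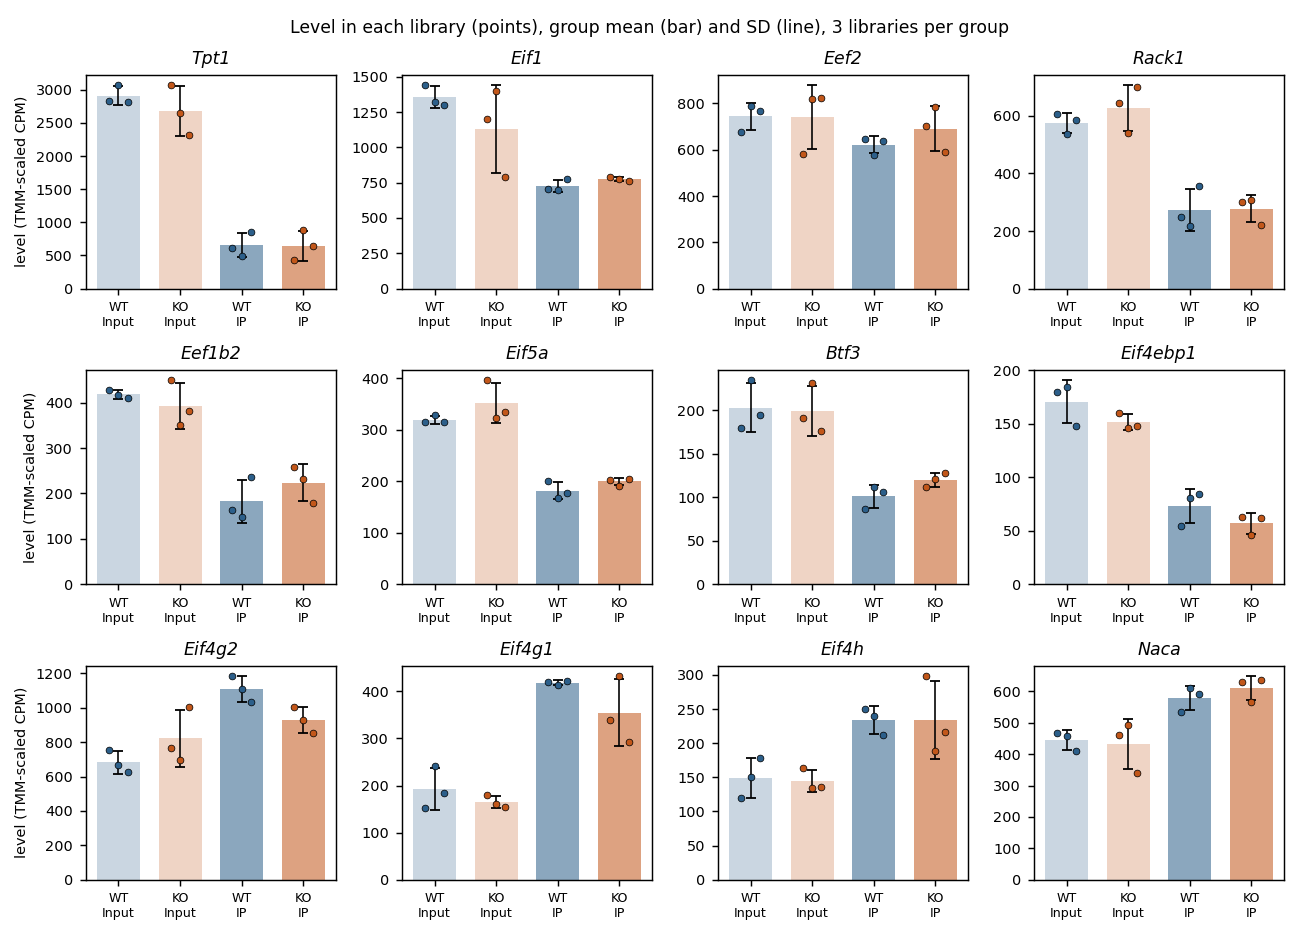
Level of 12 members in each library, in TMM-scaled CPM, for WT Input, KO Input, WT IP and KO IP. Points are libraries, bars are means of 3 libraries and lines are SDs. Tpt1 stood between 2313 and 3075 CPM in the 6 Input libraries and between 429 and 882 CPM in the 6 IP libraries, while Eif4g1 was higher in every IP library than in any Input library.

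The first comparison, IP against Input within a genotype, asks how the members' mRNAs are represented on tagged ribosomes relative to the tissue's total RNA. The mRNAs of Tpt1, Eef1b2, Rack1, Btf3, Eif1, Eif5a and Eif3f, together with that of the cap-binding inhibitor Eif4ebp1, were called lower in IP than in Input in both genotypes. The mRNA of the large initiation scaffold Eif4g1 and that of the helicase cofactor Eif4h were higher in IP in both. In WT 4 members were higher and 12 lower in IP past an adjusted p of 0.05, where 5.37% of all tested genes were higher and 8.67% lower. In KO 4 were higher and 9 lower, against 6.64% and 9.78% of all tested genes. The median log2 fold change over the 43 tested members was -0.16 in WT and -0.04 in KO, beside 0.02 and 0.01 over all 6596 tested genes. The DESeq2 test called 11 members in WT and 11 in KO, against 10.7% and 12.9% of genes, and limma-voom 16 and 11, against 13.8% and 13.6%. All 3 IP libraries lay above all 3 Input libraries for 10 members in WT and 7 in KO, where 16.4% and 15.2% of genes separated so, and below them for 16 and 10, where 18.2% and 15.6% did. All adjusted p-values are from edgeR's quasi-likelihood test with Benjamini-Hochberg adjustment over all tested genes, and a fold change is given on the log2 scale with its standard error (SE).

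**Figure D2:**
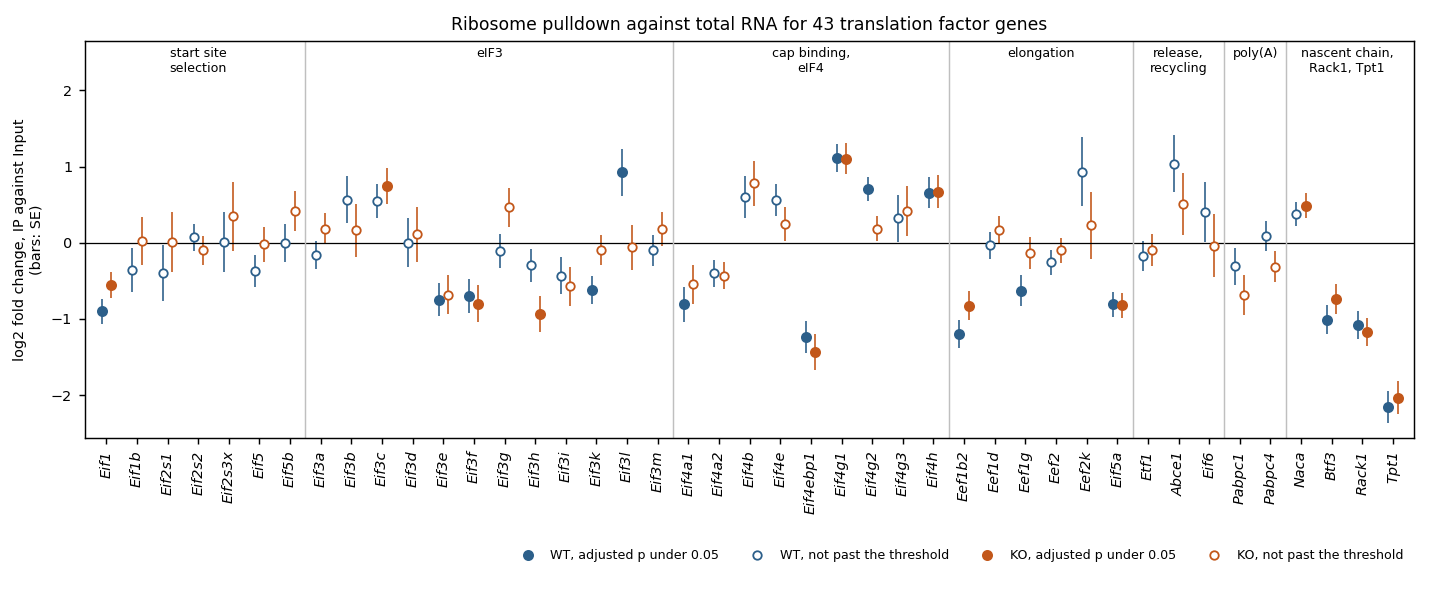
Log2 fold change of IP against Input with its SE for the 43 tested members, grouped by role, in WT (blue) and KO (orange); each value rests on 3 libraries against 3, and filled points are past an adjusted p of 0.05. The largest change in both genotypes was that of Tpt1, at -2.16 in WT and -2.03 in KO, and Eif4g1 stood at 1.11 and 1.10.

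Markers of some cell types differed with the fraction. The summed level of 5 adipocyte markers was 116 to 487 CPM over the 6 Input libraries and 8.57 to 40.5 CPM over the 6 IP libraries, with Lep at 0 in 3 of the 4 groups. The summed level of 6 endothelial markers was 743 to 898 CPM in Input and 525 to 595 CPM in IP. The sum of 6 fibroblast markers was 1238 to 1387 CPM in WT Input and 1441 to 1750 in WT IP, with no overlap, and 1140 to 1847 and 1734 to 1941 CPM in KO, where the fractions overlapped. Cardiomyocyte, macrophage, smooth muscle and pericyte, and erythroid marker sums overlapped between the fractions within each genotype. The part of cell composition in the members' differences was not tested, and in such bulk samples fewer cells of a type and less RNA per cell cannot be told apart.

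Among the 7 factors of the ternary complex and start-site selection, only Eif1 passed the test, and it was lower in IP in both genotypes. The gene (ENSMUSG00000035530.13, chromosome 11, 100319885 to 100322096, plus strand, build GRCm38) was at 1443, 1322 and 1296 CPM in WT Input, 1199.6, 1398 and 789.9 in KO Input, 703, 701 and 773 in WT IP and 789, 774 and 761 in KO IP. Every IP library lay below every Input library within WT, and within KO Input replicate 3 was low and level with the highest IP library. The fold change was -0.90 (SE 0.17, edgeR adjusted p 0.000487) in WT and -0.55 (SE 0.17, edgeR adjusted p 0.0262) in KO. The KO call was lost without KO Input replicates 1 or 2 or any KO IP replicate, at adjusted p between 0.0545 (KO IP replicate 1 left out) and 0.209 (KO Input replicate 2 left out). It was also lost with library totals in place of TMM factors (0.121), without a count filter (0.119) and with the KO libraries fitted alone (0.0751).

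Its paralog Eif1b encodes a nearly identical protein, so reads could be misassigned between the genes. Over their coding sequences, both 342 bases long, the pair matched at 81.3% of positions and differed at 64. The first 120 coding bases of each (GENCODE M21) are shown because they show how the pair can be told apart, with the 19 differing bases in capitals.
Eif1: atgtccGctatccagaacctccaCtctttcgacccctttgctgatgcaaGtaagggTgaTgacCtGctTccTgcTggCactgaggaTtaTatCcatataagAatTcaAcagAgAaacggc
Eif1b: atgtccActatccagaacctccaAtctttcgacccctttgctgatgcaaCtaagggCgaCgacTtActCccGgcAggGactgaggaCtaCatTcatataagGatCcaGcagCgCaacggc
Eif1b was at 79.8, 76.4 and 111 CPM in WT Input, 107, 92.4 and 34.1 in KO Input, 79.9, 75.4 and 49.3 in WT IP and 107, 70.6 and 74.8 in KO IP. Its IP and Input libraries overlapped in both genotypes, with fold changes of -0.36 (SE 0.29, edgeR adjusted p 0.454) and 0.03 (SE 0.31, edgeR adjusted p 0.97). The count ratio of Eif1 to Eif1b, pooled over 3 libraries, was 15.6 in WT Input (exact 95% interval 12.7 to 19.4) and 10.5 in WT IP (8.74 to 12.7). In KO it was 14.1 (10.8 to 18.7) in Input and 9.57 (8.06 to 11.4) in IP. These intervals cover counting error only, and the ratios of single libraries overlapped between the fractions in WT and not in KO.

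The other 5 start-site factors did not pass in either genotype. Eif2s1, Eif2s2 and Eif2s3x, the subunits of the factor that carries initiator tRNA, had WT fold changes of -0.39 (SE 0.37, edgeR adjusted p 0.52), 0.07 (SE 0.18, edgeR adjusted p 0.836) and 0.01 (SE 0.39, edgeR adjusted p 0.993). Eif2s1 and Eif2s3x were low, at 50.0 ± 21.8 and 24.9 ± 4.11 CPM in WT Input, and their SEs were accordingly wide. Eif5, which triggers GTP hydrolysis at the start codon, was at 171 ± 32.3 CPM in WT Input and 131 ± 24.0 in WT IP. Eif5b, which joins the large subunit, was at 201 ± 7.63 and 200.0 ± 85.8 CPM.

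The 12 subunits of eIF3, the scaffold that holds the small subunit, the mRNA and eIF4G together, were called in different directions. In WT Eif3l was higher in IP and Eif3e, Eif3f and Eif3k were lower, and in KO Eif3c was higher and Eif3f and Eif3h were lower. The median fold change over the 12 was -0.13 in WT and 0.02 in KO, and their summed level was 1557 ± 86.7 CPM in WT Input, 1429 ± 146 in KO Input, 1359 ± 26.6 in WT IP and 1323 ± 47.8 in KO IP. Only Eif3f was called in both genotypes. In the test of the difference itself, no subunit differed between the genotypes past the threshold.

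Eif3k, which pairs with Eif3l at the edge of the complex, was at 179, 215 and 188 CPM in WT Input, 156, 135 and 182 in KO Input, 138, 123 and 116 in WT IP and 168, 129.5 and 143 in KO IP. The WT groups did not overlap, while the KO groups did. The fold changes were -0.62 (SE 0.18, edgeR adjusted p 0.0228) in WT and -0.10 (SE 0.20, edgeR adjusted p 0.79) in KO. Eif3h, a subunit with an MPN domain, was at 169, 180.0 and 178 CPM in WT Input, 239.9, 131 and 188 in KO Input, 148, 128 and 153 in WT IP and 60.7, 114 and 109.7 in KO IP. All 3 KO IP libraries lay below the KO Input libraries, whose highest value was replicate 1. This gave fold changes of -0.29 (SE 0.22, edgeR adjusted p 0.401) in WT and -0.94 (SE 0.24, edgeR adjusted p 0.00738) in KO, and the KO call was lost without KO Input replicate 1 (-0.68, adjusted p 0.118).

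Eif3l was called in WT at 0.92 (SE 0.30, edgeR adjusted p 0.0422), from 32.5 ± 9.30 CPM in Input to 60.8 ± 4.31 in IP. In KO it was at 67.4 ± 11.1 and 63.8 ± 12.2 CPM, a fold change of -0.06 (SE 0.29, edgeR adjusted p 0.921). Eif3e and Eif3f, both of which bear on control of initiation and are known as TOP mRNAs, were lower in WT at -0.75 (SE 0.22, edgeR adjusted p 0.0235) and -0.70 (SE 0.22, edgeR adjusted p 0.0352). In KO Eif3e stood at -0.68 (SE 0.25, edgeR adjusted p 0.0695) and Eif3f at -0.80 (SE 0.24, edgeR adjusted p 0.0221). Eif3c, a core subunit, went from 96.8 ± 20.4 to 165 ± 35.6 CPM in KO, a fold change of 0.74 (SE 0.24, edgeR adjusted p 0.0323). The remaining subunits, Eif3a, Eif3b, Eif3d, Eif3g, Eif3i and Eif3m, passed in neither genotype, with fold changes between -0.57 (Eif3i in KO) and 0.57 (Eif3b in WT).

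These eIF3 calls were near the threshold. The WT calls of Eif3e and Eif3l were lost when any single WT library was left out, at adjusted p of 0.0578 to 0.103 and 0.0527 to 0.200. The WT call of Eif3f was lost without any WT library but IP replicate 3 (0.0648 to 0.192), and that of Eif3k without any but Input replicate 1 (0.0502 to 0.114). With library totals, no count filter or the DESeq2 test in place of edgeR's, the WT adjusted p was 0.0644, 0.0639 and 0.0590 for Eif3e, 0.105, 0.0678 and 0.0764 for Eif3f, and 0.0805, 0.117 and 0.0631 for Eif3k. Eif3l in WT had 0.0523 without a count filter, 0.0969 by DESeq2 and 0.0563 with the replicate number as a block. In KO, Eif3c lost its call without Input replicates 1 or 3 or IP replicates 1 or 3 (0.0693 to 0.169) and Eif3f without Input replicate 2 or IP replicates 1 or 3 (0.0660 to 0.246). The KO call of Eif3c was also lost by DESeq2 (0.0662) and limma-voom (0.0617), and that of Eif3f with library totals (0.0903) and without a count filter (0.0616).

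Of the 9 cap-binding and eIF4 factors, those that assemble on the cap and unwind the leader were split between higher and lower. Eif4g1, the scaffold that bridges the cap-binding protein, the helicase and the poly(A)-binding protein, was higher in IP in both genotypes. The gene (ENSMUSG00000045983.16, chromosome 16, 20668313 to 20692884, plus strand) was at 152, 242 and 185 CPM in WT Input, 179, 162 and 153 in KO Input, 419, 413 and 423 in WT IP and 338, 433 and 293 in KO IP. No IP library overlapped an Input library, and the 3 WT IP libraries were tightly grouped. Fold changes came to 1.11 (SE 0.19, edgeR adjusted p 0.000145) in WT and 1.10 (SE 0.20, edgeR adjusted p 0.000412) in KO.

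Eif4g2, a relative that lacks the site for the cap-binding protein, was at 755, 666 and 625 CPM in WT Input, 765, 693 and 1006 in KO Input, 1186, 1108 and 1035 in WT IP and 1003, 931 and 851 in KO IP. The WT groups were apart, but KO Input replicate 3 was as high as the highest KO IP library. The fold changes were 0.70 (SE 0.16, edgeR adjusted p 0.0034) in WT and 0.18 (SE 0.16, edgeR adjusted p 0.479) in KO. Eif4g3, the closer paralog of Eif4g1, was at 54.8, 69.0 and 40.3 CPM in WT Input, 57.1, 61.6 and 56.8 in KO Input, 38.5, 85.7 and 86.3 in WT IP and 67.7, 70.6 and 96.4 in KO IP. Its groups overlapped in WT and not in KO, and it passed in neither genotype (0.32 (SE 0.31, edgeR adjusted p 0.529) and 0.42 (SE 0.33, edgeR adjusted p 0.425)). The coding sequences of Eif4g1 and Eif4g3 matched at 56.2% of aligned positions.

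Eif4ebp1, which binds the cap-binding protein and blocks its contact with eIF4G until mTOR phosphorylates it, went the other way. The gene (ENSMUSG00000031490.6, chromosome 8, 27260329 to 27276674, plus strand) was at 179, 185 and 148 CPM in WT Input, 159.9, 146 and 148 in KO Input, 54.8, 80.5 and 84.5 in WT IP and 63.0, 45.8 and 61.5 in KO IP. Every IP library lay below every Input library in both genotypes. This gave fold changes of -1.23 (SE 0.21, edgeR adjusted p 0.000201) and -1.44 (SE 0.24, edgeR adjusted p 0.000125). Eif4e, the cap-binding protein itself, was not called, at 0.56 (SE 0.21, edgeR adjusted p 0.0693) and 0.24 (SE 0.22, edgeR adjusted p 0.501).

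The helicase genes Eif4a1 and Eif4a2 share 77.8% of their coding positions. Eif4a1 was at 132, 116 and 134 CPM in WT Input, 99.0, 119 and 85.2 in KO Input, 79.9, 73.7 and 63.4 in WT IP and 49.0, 86.3 and 69.8 in KO IP. The WT groups did not overlap and the KO groups met at KO IP replicate 2 and KO Input replicate 3. Fold changes came to -0.81 (SE 0.23, edgeR adjusted p 0.0182) in WT and -0.55 (SE 0.25, edgeR adjusted p 0.149) in KO, and the WT call was lost without Input replicates 1 or 3 or IP replicates 2 or 3 (adjusted p 0.0510 to 0.0836) and without a count filter (0.0572). Eif4a2, the more abundant of the pair here, was at 269, 279 and 316 CPM in WT Input, 270.4, 312 and 335 in KO Input, 216, 236 and 199 in WT IP and 203, 276 and 193 in KO IP. Its fold changes were -0.40 (SE 0.18, edgeR adjusted p 0.132) and -0.43 (SE 0.18, edgeR adjusted p 0.111), not past the threshold. There were 2.25 counts of Eif4a2 per count of Eif4a1 in WT Input (exact 95% interval 1.84 to 2.77), 2.93 in KO Input (2.23 to 3.88), 2.98 in WT IP (2.45 to 3.66) and 3.21 in KO IP (2.63 to 3.94). Counting error alone sets these intervals. Ratios of single libraries overlapped between the fractions in KO and not in WT.

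Eif4h, a cofactor that raises the activity of the helicase, was higher in IP in both genotypes, at 0.66 (SE 0.20, edgeR adjusted p 0.0274) and 0.67 (SE 0.21, edgeR adjusted p 0.0337). It went from 149 ± 29.2 to 234 ± 20.1 CPM in WT and from 145 ± 16.3 to 234 ± 57.4 CPM in KO. Its WT call was lost without Input replicates 1 or 2 or IP replicates 1 or 2 (adjusted p 0.0765 to 0.174), and its KO call without any Input replicate or without IP replicate 1 (0.0517 to 0.141), by DESeq2 (0.0546) and by limma-voom (0.0648). Eif4b, the related cofactor, had fold changes of 0.60 (SE 0.28, edgeR adjusted p 0.157) and 0.78 (SE 0.29, edgeR adjusted p 0.0711), not past the threshold.

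Among the 6 elongation genes, Eef1b2, the exchange factor that recharges eEF1A with GTP, was lower in IP in both genotypes. The gene (ENSMUSG00000025967.16, chromosome 1, 63176825 to 63180486, plus strand) was at 429, 417 and 409.8 CPM in WT Input, 449, 351 and 381 in KO Input, 164, 147 and 236 in WT IP and 259, 232 and 179.5 in KO IP. No IP library reached the Input range in either genotype. The fold changes were -1.20 (SE 0.19, edgeR adjusted p 6.18e-05) and -0.82 (SE 0.19, edgeR adjusted p 0.00371). Eef1b2 overlaps Ndufs1 on the opposite strand, which had 359 counts against 1466 for Eef1b2, and the sources used here do not state whether counting used strand.

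Eif5a, which helps the ribosome through sequences that are slow to form peptide bonds, was at 314, 328 and 316 CPM in WT Input, 396, 324 and 335 in KO Input, 199.8, 168 and 178 in WT IP and 203, 191 and 204 in KO IP. The IP libraries lay in a narrow band below all Input libraries. This gave fold changes of -0.81 (SE 0.16, edgeR adjusted p 0.00105) and -0.82 (SE 0.17, edgeR adjusted p 0.0011). Eef1g, the scaffold of the exchange complex, was called in WT at -0.63 (SE 0.20, edgeR adjusted p 0.0357) and not in KO at -0.14 (SE 0.21, edgeR adjusted p 0.715). The WT call was lost without any Input replicate or without IP replicates 1 or 2 (adjusted p 0.0726 to 0.234), with library totals (0.113), without a count filter (0.0681) and by DESeq2 (0.0636).

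Eef2 was at 675, 789 and 766 CPM in WT Input, 583, 820.5 and 824 in KO Input, 648, 579 and 636 in WT IP and 702, 784 and 588 in KO IP. WT IP libraries were all below WT Input libraries, and the KO groups overlapped. Fold changes came to -0.26 (SE 0.16, edgeR adjusted p 0.305) and -0.10 (SE 0.16, edgeR adjusted p 0.748), not past the threshold. Eef1d, a further exchange subunit, had fold changes of -0.03 (SE 0.17, edgeR adjusted p 0.922) and 0.16 (SE 0.19, edgeR adjusted p 0.604). Eef2k, the kinase that inhibits Eef2, was at 14.9 ± 4.83 CPM in WT Input and 29.2 ± 5.84 in WT IP, a fold change of 0.93 (SE 0.45, edgeR adjusted p 0.181), with a wide SE at these few counts.

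None of the release, recycling and subunit-joining genes passed in either genotype. Etf1, the protein that reads stop codons, was at 133 ± 16.0 CPM in WT Input and 117 ± 5.78 in WT IP (-0.18 (SE 0.20, edgeR adjusted p 0.602)). Abce1, the ATPase that splits terminated ribosomes, stood at 1.04 (SE 0.38, edgeR adjusted p 0.0677) in WT and 0.51 (SE 0.41, edgeR adjusted p 0.44) in KO. Eif6, which keeps large subunits from joining too early, stood at 0.40 (SE 0.39, edgeR adjusted p 0.537) and -0.04 (SE 0.41, edgeR adjusted p 0.968). Gspt1, the GTPase partner of Etf1, had 1, 1 and 3 counts in WT Input, 0, 2 and 0 in KO Input, 5, 0 and 2 in WT IP and 1, 2 and 0 in KO IP. Its level was at or near the 3-count limit of each library, and no comparison was made.

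Both poly(A)-binding genes passed in neither genotype. Pabpc1 was at 157, 131 and 188 CPM in WT Input, 145, 177 and 136 in KO Input, 91.8, 195 and 95.1 in WT IP and 93.3, 101 and 91.4 in KO IP. WT IP replicate 2 stood well above the other 5 IP libraries, in both genotypes. The fold changes were -0.31 (SE 0.24, edgeR adjusted p 0.432) and -0.69 (SE 0.27, edgeR adjusted p 0.0797). Pabpc4 was at 159.5, 209.6 and 218 CPM in WT Input, 225, 227 and 295 in KO Input, 197, 204 and 220.1 in WT IP and 149, 247 and 189 in KO IP. Its groups overlapped in both genotypes, with fold changes of 0.08 (SE 0.20, edgeR adjusted p 0.824) and -0.32 (SE 0.20, edgeR adjusted p 0.314). Pooled counts held 1.24 Pabpc4 per Pabpc1 in WT Input (exact 95% interval 1.01 to 1.53), 1.57 in KO Input (1.23 to 2.02), 1.64 in WT IP (1.39 to 1.94) and 2.13 in KO IP (1.78 to 2.57). Counting error alone sets these intervals. Ratios of single libraries overlapped between the fractions in both genotypes, at 1.02, 1.60 and 1.16 in WT Input and 2.15, 1.04 and 2.31 in WT IP.

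Among the members Tpt1 had the largest difference between the fractions in each genotype. The gene (ENSMUSG00000060126.14, chromosome 14, 75845093 to 75848525, plus strand) was at 2829, 3075 and 2821 CPM in WT Input, 3069, 2650.1 and 2313 in KO Input, 613, 495 and 850.5 in WT IP and 429, 882 and 638 in KO IP. Input and IP were far apart, and the 2 genotypes overlapped within each fraction. This gave fold changes of -2.16 (SE 0.22, edgeR adjusted p 1.04e-07) in WT and -2.03 (SE 0.22, edgeR adjusted p 3.21e-07) in KO. Rack1 (ENSMUSG00000020372.15, chromosome 11, 48800332 to 48806434, plus strand) was at 606, 538 and 584 CPM in WT Input, 644, 539 and 699 in KO Input, 247, 218 and 356 in WT IP and 301, 307 and 223 in KO IP. Again no IP library reached the Input range. Fold changes came to -1.08 (SE 0.18, edgeR adjusted p 0.00017) and -1.17 (SE 0.19, edgeR adjusted p 8.3e-05). Rack1 overlaps Trim41 on the opposite strand, which had 126 counts against 2061. Processed pseudogenes of abundant members such as Tpt1, Rack1 and Eif1 are known, and the sources used here do not state how reads matching several copies were counted.

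Naca and Btf3 encode the 2 subunits of the nascent polypeptide-associated complex, which meets new chains as they leave the ribosome. Btf3 was at 179, 234 and 195 CPM in WT Input, 190.4, 231 and 176 in KO Input, 85.9, 111 and 106 in WT IP and 112, 120.3 and 128 in KO IP. All IP libraries were below all Input libraries within each genotype. The fold changes were -1.01 (SE 0.19, edgeR adjusted p 0.000506) and -0.73 (SE 0.20, edgeR adjusted p 0.0108), and the KO call was lost without KO Input replicate 2 (-0.61, adjusted p 0.0915), with library totals (0.0608) and without a count filter (0.0830). Naca, its partner, went from 445 ± 30.6 to 579 ± 38.6 CPM in WT and from 432 ± 80.1 to 611 ± 38.8 in KO. Its fold changes were 0.38 (SE 0.15, edgeR adjusted p 0.107), not past the threshold, and 0.49 (SE 0.16, edgeR adjusted p 0.0382), a call lost without KO Input replicates 1 or 3 or KO IP replicates 1 or 3 (adjusted p 0.0686 to 0.140) and with the KO libraries fitted alone (0.0812). Naca also makes a long muscle-specific form, 6745 nt in the annotation, and the gene-level counts do not separate the forms.

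The WT and KO comparisons use different libraries, so their calls can be set side by side. Eif4g1 and Eif4h were called higher in both, which is 50% of the 4 higher calls of each genotype. Btf3, Eef1b2, Eif1, Eif3f, Eif4ebp1, Eif5a, Rack1 and Tpt1 were called lower in both, which is 66.7% of the 12 lower calls in WT and 88.9% of the 9 in KO. Over the 43 members the 2 sets of fold changes had Pearson's r 0.853 and Spearman's rho 0.828, and 32 had the same sign. These coefficients run across genes, which share libraries and are not independent replicates. No such shares or coefficients are given here over all tested genes, so the likeness cannot be read as particular to the members. Under all 15 alternatives that gave a test, Eif1, Eif4ebp1, Eif4g1, Eif4g2, Eef1b2, Eif5a, Btf3, Rack1 and Tpt1 stayed past the threshold in WT, and Eif4ebp1, Eif4g1, Eef1b2, Eif5a, Rack1 and Tpt1 in KO. Leaving out 1 library moved the count of called members by over 1.5 times in 4 of 6 cases in WT, to 10 without Input replicate 1, Input replicate 3, IP replicate 1 or IP replicate 2, and in KO to 8 without Input replicate 1 or IP replicate 1.

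Transcript length moved with the IP difference, in the members and in all genes. The 19 members whose longest annotated transcript was under 2000 nt had a median fold change of -0.63 in WT, with 1 called higher and 11 lower, and of -0.55 in KO, with 0 higher and 8 lower. All 1872 tested genes under 2000 nt had medians of -0.27 and -0.30, with 57 higher and 363 lower (19.4%) in WT and 54 and 410 (21.9%) in KO. The 24 tested members of at least 2000 nt had medians of 0.08 in WT (3 higher, 1 lower) and 0.19 in KO (4 higher, 1 lower), beside 0.11 and 0.12 over the 4719 tested genes of that length. Of those genes 297 were higher (6.29%) and 208 lower (4.41%) in WT, and 384 (8.14%) and 232 (4.92%) in KO. With the trend of fold change on length over all genes removed, the 16 called members in WT and the 13 in KO kept their sign, and the size was smaller for 14 and 12 of them. The value moved by over 1.5 times for 5 members in each genotype. In WT Eif3k went from -0.62 to -0.17, Eif1 from -0.90 to -0.59, Eif3e from -0.75 to -0.49, Eif5a from -0.81 to -0.53 and Btf3 from -1.01 to -0.62. In KO Naca went from 0.49 to 0.17, Eif1 from -0.55 to -0.22, Btf3 from -0.73 to -0.31, Eif3h from -0.94 to -0.59 and Eif5a from -0.82 to -0.53. Tpt1 then stood at -1.79 in WT and -1.64 in KO. Naca was placed by its long muscle-specific form of 6745 nt, which the counts do not separate from other forms. Its length class and its value without the trend rest on that form. The part of transcript length in the members' differences was not tested beyond this.

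**Figure D3:**
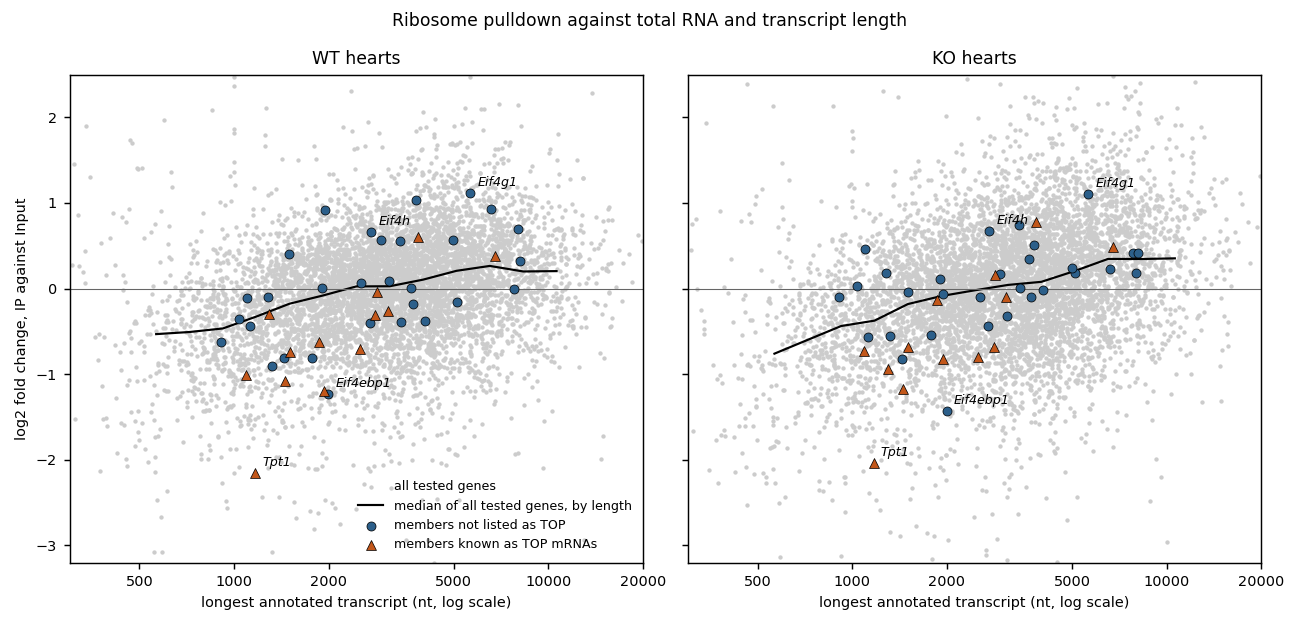
Log2 fold change of IP against Input by the length of the longest annotated transcript (nt, log scale) in WT and KO. Grey points are tested genes, the line is their median by length, blue circles are members not listed as TOP mRNAs and orange triangles are members known as TOP mRNAs; 69 genes in WT and 79 in KO lie outside the axes, none of them members. The line runs from below 0 for short transcripts to above 0 for long ones, and 10 of the 13 triangles in WT and 9 in KO lie under a smooth trend fitted over all genes. Relative to that trend the medians in WT and KO were -0.47 and -0.41 for the triangles. They were 0.10 and 0.05 for the circles, and 0.05 and 0.02 for all tested genes.

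Work on other cells has shown that 13 of the members are TOP mRNAs, namely Eef1b2, Eef1d, Eef1g, Eef2, Eif3e, Eif3f, Eif3h, Eif4b, Naca, Btf3, Pabpc1, Rack1 and Tpt1. In WT 0 of these 13 were called higher and 7 lower, with a median of -0.63, and in KO 1 was higher and 6 lower, with a median of -0.69. Of all tested genes 5.37% were higher and 8.67% lower in WT, and 6.64% and 9.78% in KO. Of all tested genes under 2000 nt 19.4% were lower in WT and 21.9% in KO. The 30 other tested members had 4 higher and 5 lower in WT (median -0.0032) and 3 higher and 3 lower in KO (median 0.07). The summed level of the 13 was 6518 ± 151 CPM in WT Input, 6192 ± 385 in KO Input, 3374 ± 381 in WT IP and 3485 ± 326 in KO IP. Tpt1 made up much of that difference, at 2909 ± 144, 2677 ± 379, 653 ± 181 and 650 ± 226 CPM (SD, n = 3). The other 12 summed to 3610 ± 39.1, 3515 ± 108, 2721 ± 217 and 2836 ± 196 CPM. That of the others was 5678 ± 178, 5497 ± 251, 5457 ± 203 and 5323 ± 246 CPM. Among members under 2000 nt the medians in WT were -1.01 for the 7 known TOP mRNAs and -0.40 for the 12 others, and in KO -0.82 and -0.08. Among those of at least 2000 nt the medians were -0.15 in WT and 0.03 in KO for the 6 known TOP mRNAs, with Naca placed by its long form. For the 18 others tested they were 0.20 and 0.21. The part of TOP status in the members' differences was not tested. Of 79 tested cytosolic ribosomal protein genes, the best-known TOP mRNAs, 73 were lower and 0 higher in each genotype, with medians of -1.43 in WT and -1.37 in KO. These genes are short, with a median length of 937 nt. With the length trend removed their medians were -1.01 in WT and -0.85 in KO.

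Start sites of 34 members had an entry in RefSeq (GRCm38.p6). A transcript beginning with C and at least 4 further pyrimidines, read on the gene's strand, was found for Rack1, Eif3f and Eif2s3x, 8.82% of the 34, beside 3.01% of all 27025 genes with an entry and 22.2% of 63 ribosomal protein genes. The 30 bases around the start, 15 to either side, are shown for these 3 and for Tpt1 and Eif4g1, the members with the largest lower and higher fold changes in WT. Capitals mark the pyrimidine run from the annotated start.
Rack1 (chr11:48800345-48800374, plus strand): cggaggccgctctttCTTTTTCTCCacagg
Eif3f (chr7:108934400-108934429, plus strand): tctgttctaggctctCTCTCTTTCTCggca
Eif2s3x (chrX:94212637-94212666, minus strand): ctgccgagcattttcCTTTTCTCTCCgagc
Tpt1 (chr14:75845241-75845270, plus strand): gtcaccgctgacgacagttccgggggagcc
Eif4g1 (chr16:20672712-20672741, plus strand): cgccagcgcagctccgccctctgcgccggt
Tpt1 and Eif4g1 held no such run at these annotated starts, which says only that these letters are not at the base the table gives. With the start allowed to shift by up to 5 bases, 7 members (20.6%) and 21.2% of all genes held one. Eif4g1, Eif3l, Eif3b and Naca were then added to the 3 above. Rack1 and Eif3f were lower in IP, while Eif2s3x stood at 0.01 (SE 0.39, edgeR adjusted p 0.993) in WT and 0.35 (SE 0.45, edgeR adjusted p 0.661) in KO.

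The second comparison, KO against WT within a fraction, asks whether loss of Rpl3l changes the mRNAs of the translation machinery. No member passed the threshold in Input or in IP. In Input 0 of 43 were called higher and 0 lower, where 0.152% and 0.0303% of all tested genes were called. An unadjusted p under 0.05 was found for 2 members, and for 7.11% of all genes. In IP 0 were called in either direction, where 0.0303% of genes were higher and 0.0606% lower, and 1 member had an unadjusted p under 0.05, as did 5.20% of genes. The DESeq2 test (which gave 41 of 43 an adjusted p in IP) and limma-voom also called 0 members in each fraction. Over all genes DESeq2 called 0.212% in Input and 0.249% in IP and limma-voom 0.136% and 0.106%. There was 1 member at an unadjusted p under 0.05 in each fraction by DESeq2, and 2 in Input and 1 in IP by limma-voom. The median fold change over members was -0.03 in Input and 0.02 in IP, beside -0.01 and 0.00012 over all genes.

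**Figure D4:**
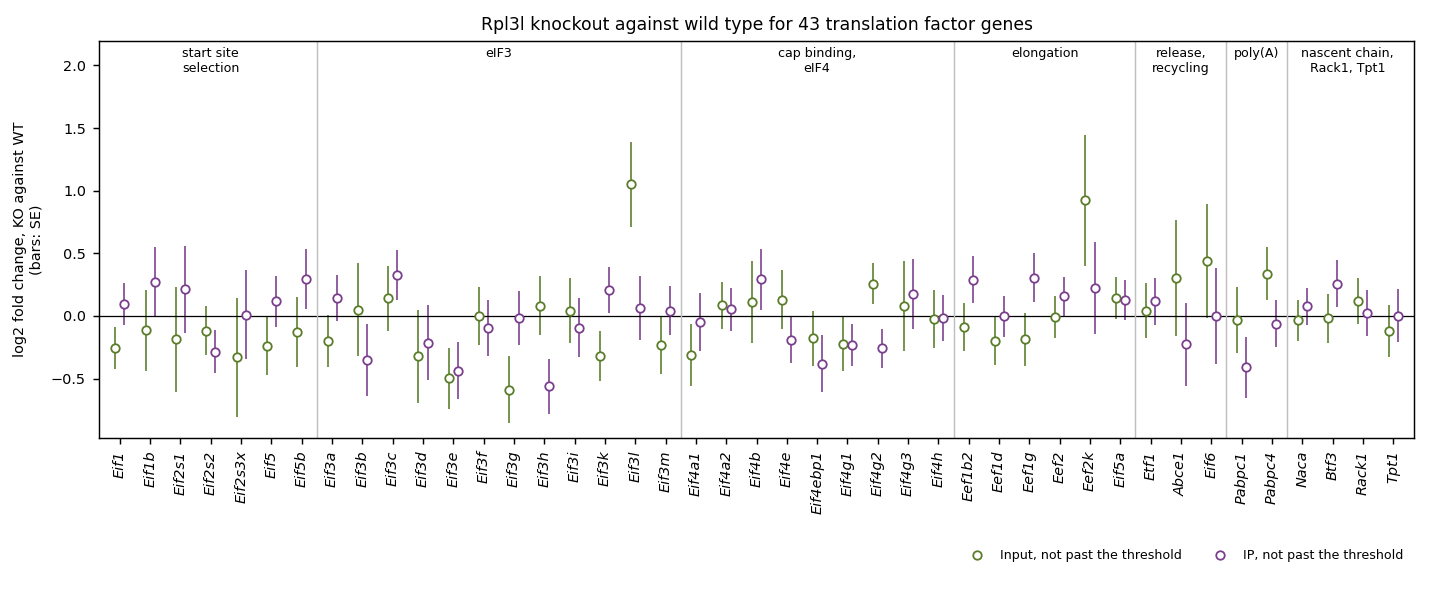
Log2 fold change of KO against WT with its SE for the 43 tested members, grouped by role, in Input (green) and IP (purple), 3 libraries against 3. All points are open, since no member passed an adjusted p of 0.05, and the point farthest from 0 is Eif3l in Input at 1.05.

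Eif3l had the smallest p in Input. It was at 34.9, 22.2 and 40.3 CPM in WT Input, 64.7, 57.8 and 79.6 in KO Input, 60.7, 56.5 and 65.1 in WT IP and 72.3, 69.3 and 49.9 in KO IP. All KO Input libraries lay above all WT Input libraries, and the IP groups overlapped. The fold change was 1.05 (SE 0.34, edgeR adjusted p 0.44) in Input and 0.07 (SE 0.26, edgeR adjusted p 0.999) in IP. The Input value rests on few counts, 14, 9 and 12 in WT Input and 17, 15 and 14 in KO Input. The same WT Input counts entered the WT call of Eif3l in IP against Input, so the 2 values are not independent. Eif3g, a subunit that binds RNA, had the smallest p among those lower in Input. It was at 97.2, 86.3 and 101 CPM in WT Input, 68.5, 65.5 and 51.1 in KO Input, 69.6, 105 and 89.8 in WT IP and 88.7, 86.3 and 84.8 in KO IP, with KO Input below WT Input in all libraries and a fold change of -0.59 (SE 0.27, edgeR adjusted p 0.669). In IP the smallest p among lower members was that of Eif3h, whose libraries are given with the eIF3 subunits, at -0.56 (SE 0.22, edgeR adjusted p 0.889). Among higher members it was that of Eif3c, which was at 84.7, 104 and 73.9 CPM in WT Input, 80.0, 119 and 90.9 in KO Input, 141, 109.6 and 137 in WT IP and 201, 129.5 and 165 in KO IP, with a fold change of 0.33 (SE 0.20, edgeR adjusted p 0.965) and overlapping groups.

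Groups did not overlap for 6 members in Input, chosen here after their values were seen. Eif3l, Eif6 and Pabpc4 were higher in all KO libraries, and Eif3e, Eif3g and Eef1d lower, where 6.17% and 6.20% of all tested genes separated in the same directions. In IP Btf3 separated higher and Eif3h and Eif4g2 lower, beside 5.40% and 5.44% of genes. These shares of the 43 members are near those of all genes.

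The size of change these libraries could show differs by member. The SE over members ran from 0.16 to 0.53 in Input (median 0.23) and from 0.15 to 0.38 in IP (median 0.20). An interval of 2 SE to either side lay within a 2-fold change (log2 of 1) for 35 of 43 members in Input and all 43 in IP, and within a log2 of 0.5 for 10 and 13. For Eef2 that interval was -0.34 to 0.33 in Input and -0.16 to 0.47 in IP. For Tpt1 it was -0.53 to 0.30 and -0.42 to 0.43, and for Rack1 -0.25 to 0.48 and -0.35 to 0.39. For Eif4ebp1 it was -0.62 to 0.26 and -0.84 to 0.08. Low members such as Eef2k were less constrained, at -0.13 to 1.97 in Input.

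The third comparison tests whether the IP to Input ratio itself differs between KO and WT, and uses all 12 libraries. Again 0 of 43 members passed in either direction by edgeR, where 0.0303% of all tested genes were higher and 0.0606% lower, and 2 members had an unadjusted p under 0.05, as did 7.02% of genes. DESeq2 and limma-voom also called 0 members, where they called 0.0758% and 0.0152% of genes, with 1 and 2 members at an unadjusted p under 0.05. The 2 members were Eif3l, at -0.98 (SE 0.42, edgeR adjusted p 0.668), and Eif4g2, at -0.52 (SE 0.22, edgeR adjusted p 0.668). Among positive differences the smallest p was that of Eif3k, at 0.52 (SE 0.27, edgeR adjusted p 0.744). The members called in 1 genotype alone, such as Eif4g2, Eif3k and Eif3h, were therefore not shown to differ between the genotypes. The median difference over members was 0.10, beside 0.01 over all genes, and for 27 of 43 the interval of 2 SE lay within a log2 of 1. This comparison shares its libraries with those above.

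Other genes of the pathway were examined as 2 lists. Of 54 further translation factors and regulators, 53 were in the table and 42 were tested. In WT 3 were higher in IP and 2 lower, and in KO 5 were higher and 1 lower, where 5.37% and 8.67% of all genes were higher and lower in WT and 6.64% and 9.78% in KO. Eef1a1, the general elongation factor that delivers tRNA and a known TOP mRNA, was lower at -1.73 (SE 0.19, edgeR adjusted p 2.91e-07) in WT and -1.60 (SE 0.19, edgeR adjusted p 1.52e-06) in KO. Its muscle paralog Eef1a2 was higher at 0.70 (SE 0.16, edgeR adjusted p 0.00388) and 0.85 (SE 0.17, edgeR adjusted p 0.000787). Larp1, which binds TOP mRNAs, was higher at 0.81 (SE 0.26, edgeR adjusted p 0.0382) in WT and 1.61 (SE 0.30, edgeR adjusted p 0.000491) in KO. Mknk2, a kinase of Eif4e, was higher at 0.80 and 0.87 (edgeR adjusted p 0.00506 and 0.00367). Pabpn1, the nuclear poly(A)-binding protein, was lower in WT at -1.26 (edgeR adjusted p 0.0231). Eif4ebp2, the close relative of Eif4ebp1, was higher in KO at 1.66 (edgeR adjusted p 0.00130), from 23.5 ± 6.72 CPM in Input to 76.7 ± 11.8 in IP. That Input level is low, as 3 counts stand for 10.3 to 17.7 CPM in the KO Input libraries. In WT Eif4ebp2 was not called, at 58.2 ± 12.3 CPM in Input and 74.4 ± 10.5 in IP. Of 20 tested cytosolic aminoacyl-tRNA synthetase genes, which charge tRNAs, 0 were called by edgeR in any comparison, with 1 at an unadjusted p under 0.05 in each IP against Input comparison. Their medians were 0.30 in WT and 0.21 in KO. DESeq2 and limma-voom also called 0 synthetases in every comparison, with at most 1 at an unadjusted p under 0.05. Between genotypes 0 genes of either list passed by edgeR, DESeq2 or limma-voom. Of the further translation factors, 3, 2 and 2 had an unadjusted p under 0.05 in Input by these tools and 2, 1 and 4 in IP.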

How the data were processed

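The 12 libraries (WT and KO, Input and IP, 3 each) were nanopore direct cDNA of poly(A)-selected heart RNA, per the labels' protocols. The authors deposited whole-number read counts per Ensembl gene for each library, with no normalization. The submitters' processing notes name minimap2 2.14, DESeq2 1.34.0 and build GRCm38; the counting tool, its rule for strand and for reads matching several genes, and the annotation are not given in the sources used here. Of 55401 gene IDs, 55141 matched GENCODE M21, which gave names, coordinates and transcript lengths, and 43 of the 44 members matched with the same version. Start windows are from RefSeq GRCm38.p6.

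The test was edgeR 4.0.16 (R 4.3.3): filterByExpr (minimum count 10, minimum total 15, 6596 genes kept), TMM factors, and a quasi-likelihood fit of all 12 libraries with 1 mean per group (biological coefficient of variation 18.2%). The 5 contrasts were KO against WT in each fraction, IP against Input in each genotype, and the difference of the last pair. Benjamini-Hochberg adjustment ran over all tested genes in a contrast, with a threshold of 0.05. The SE of a fold change was obtained from its size and its F statistic. Where 3 counts are named as a limit, they are the most that a count of 0 allows, and intervals and limits cover counting error only. The test was checked on simulated counts with changed genes added. At a log2 change of 1 it recovered 39% of them for KO against WT in Input and 46% in IP. For IP against Input it recovered 43% in WT and 36% in KO, and for the genotype difference of the ratio 11%. At a log2 change of 2 these 5 shares were 84%, 98%, 96%, 87% and 60%.

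Alternatives were DESeq2 size factors and the DESeq2 1.42.0 test, library totals, limma-voom (limma 3.58.1), a filter of 30 counts in 3 libraries or none, a replicate block, a fit of the 2 compared groups alone, globin genes left out, each library left out in turn, and the length trend removed (loess span 0.5). Same-numbered libraries had correlations of -0.115 to 0.0423, so numbers were not taken as pairs. This does not show whether libraries with different numbers came from the same heart. None of the 12 pairs of libraries within a group differed by as little as sampling noise.

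The members and gene lists were chosen with earlier results of these data known. All 44 members are accounted for. Values in every library were given for the 12 members with the smallest p over the 5 contrasts, the 4 paralog pairs, Eef2 and the member with the smallest p in each direction of a contrast, and the others by group means or fold changes. From the other lists up to 4 called genes per list and contrast with the smallest p were to be named. Coding sequences were aligned with Biopython 1.88.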

Additional observations from a re-analysis of the deposited data

How the results depend on the processing

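No result changed direction past a threshold under any alternative run. Leaving out 1 library at a time gave 10 to 12 called members for IP against Input in WT (16 with all libraries) and 8 to 14 in KO (13 with all libraries). It moved the members' median fold change to between -0.058 and 0.082 for KO against WT in IP and to between -0.12 and 0.040 for IP against Input in KO. With library totals in place of TMM the median was 0.15 for KO against WT in IP and 0.12 for IP against Input in KO, where the median of all genes shifted by 0.12 and 0.15. Without a count filter the median for IP against Input in KO was 0.077. With the stricter count filter, which tests fewer members, the medians for IP against Input were -0.27 in WT and -0.13 in KO. With the length trend removed the WT median was -0.036. The start allowed to shift raised the members with a pyrimidine run from 3 to 7.

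With the replicate block 15 members were called in WT, with Eif3l lost (adjusted p 0.0563), and 13 in KO, and it changed no other call; no library correlated best with its own number, in 0 of 18 cases. Input libraries held 169359 to 443177 counts, and the members' median SE for KO against WT was 0.23 in Input and 0.20 in IP; the part of depth was not tested. The cause of these shifts was not tested.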

Other observations

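Several translation factor genes carry small nucleolar RNA (snoRNA) genes in their introns, which guide the modification of ribosomal RNA. In GENCODE M21 a snoRNA gene lay within the span, on the same strand, of 11 of the 43 tested members (25.6%), beside 2.20% of all tested genes. Whether it lay in an intron was not checked. The 11 hosts were Eif5, Eif3a, Eif4a1, Eif4a2, Eif4g1, Eif4g2, Eef1b2, Eef2, Pabpc4, Rack1 and Tpt1, with Eif4a2 holding 5 snoRNA genes, and Eif4a1 and Rack1 holding 3 each. Eef1b2 held 3 entries, with the name Gm26457 repeated. Their median log2 fold change of IP against Input was -0.37 in WT, with 2 called higher and 4 lower, and -0.32 in KO, with 1 higher and 3 lower. The 32 other members had medians of -0.07 and 0.02, with 2 higher and 8 lower in WT and 3 higher and 6 lower in KO. All 145 tested host genes had medians of -0.07 and 0.08, with 6 higher and 35 lower in WT and 12 higher and 30 lower in KO. In WT 36.4% of the member hosts, 25.0% of the other members and 24.1% of all hosts were lower. In KO these shares were 27.3%, 18.8% and 20.7%. Of all tested genes 5.37% were higher and 8.67% lower in WT, and 6.64% and 9.78% in KO. The difference between member hosts and other genes was not tested.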
